A study of Mus musculus with 6 samples.

Results

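The basic helix-loop-helix regulators analysed here were the 3 E protein genes Tcf3, Tcf4 and Tcf12 and the 3 inhibitor genes Id1, Id2 and Id3. All non-control probes whose symbol or RefSeq accession named one of these genes were taken, whatever their values, which gave 9 of 55681 probes and 6 of 20663 named genes. Tcf3, Tcf4 and Tcf12 had 2 probes each, and Id1, Id2 and Id3 had 1 each. The RNA came from fetal liver of C57BL6/J mice at E18.5 (embryonic day). Satb1-null embryos, which lack the chromatin organiser Satb1, were set against wild type littermates to look for genes that depend on it in early blood progenitors. Every cell population was negative for lineage markers. The fraction enriched for haematopoietic stem cells (HSC) was c-kit high, Sca-1 positive and Flt3 negative. The fraction enriched for lymphoid-primed multipotent progenitors (LMPP) was c-kit high, Sca-1 positive and Flt3 positive, and that enriched for common lymphoid progenitors (CLP) was low in c-kit and Sca-1 and positive for IL7Rα. Each of the 6 combinations of genotype and population was measured on 1 single-colour Agilent array, so no group had a replicate. The number of embryos behind each array is unstated in the labels, as is any sharing of embryos between populations, and p-values therefore measure only the spread between these arrays.

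E proteins are transcription factors that bind E-box sequences of DNA as dimers, through a basic region next to the helix-loop-helix. Tcf3 encodes E2A (the splice forms E12 and E47), Tcf12 encodes HEB and Tcf4 encodes E2-2. These genes differ from the HMG box genes of the Wnt pathway that carry similar names. Id proteins have the helix-loop-helix but lack the basic region, so an E protein paired with an Id protein does not bind DNA. In lymphoid development E proteins are needed for B and T cell commitment, E2-2 for plasmacytoid dendritic cells, and Id2 for natural killer and other innate lymphoid cells.

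The level of a probe is its log2 processed signal relative to the 75th percentile of its array, so 0 marks that percentile. Levels of different probes are not set against each other, because probes differ in brightness for reasons unrelated to RNA abundance. The 6 arrays had between 52.4% and 57.7% of non-control spots well above background. All 9 probes passed the filter for testing (well above background on at least 3 arrays), and 8 of them were well above background on all 6 arrays. The probe for Satb1 itself read -0.03, 2.0 and 0.71 on the wild type HSC, LMPP and CLP arrays and -0.59, 1.96 and 0.65 on the Satb1-null arrays. Its position relative to the deletion is not given, so it does not check the genotype labels. Of the 4 sort markers, Flt3 stood at 3.21 and 3.32 on the LMPP arrays, 1.18 and 1.35 on the HSC arrays and 0.85 and 1.78 on the CLP arrays. Il7r stood at 1.61 and 1.55 on the CLP arrays and at most 0.12 elsewhere. Kit stood at 2.79 and 3.74 on the CLP arrays and between 4.38 and 4.63 elsewhere. Ly6a (Sca-1) overlapped between populations, at 0.21 and -0.50 in CLP, 0.29 and 0.35 in HSC and 1.12 and 0.14 in LMPP (wild type first). The wild type arrays lay in slide row 1 and the Satb1-null arrays in slide row 2, and 4 probes of Xist, the RNA of the inactive X chromosome, stood between 1.63 and 4.74 on the Satb1-null arrays and at most at -4.03 on the wild type arrays. Genotype, slide row and Xist level cannot be told apart.

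Id2, the only one of the 6 genes whose change passed the test described below, and its relative Id3 are shown by the 250 bases before the RefSeq transcription start (assembly GRCm38.p6), written 5′ to 3′ on the strand of the gene. Capitals mark the E-box CAGCTG where present. The Id2 stretch is chr12:25096093-25096342 on the minus strand and the Id3 stretch is chr4:136143572-136143821 on the plus strand.
Id2: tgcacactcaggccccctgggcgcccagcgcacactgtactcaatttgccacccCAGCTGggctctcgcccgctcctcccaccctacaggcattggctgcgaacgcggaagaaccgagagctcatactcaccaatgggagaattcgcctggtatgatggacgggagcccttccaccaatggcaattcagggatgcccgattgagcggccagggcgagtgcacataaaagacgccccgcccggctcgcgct
Id3: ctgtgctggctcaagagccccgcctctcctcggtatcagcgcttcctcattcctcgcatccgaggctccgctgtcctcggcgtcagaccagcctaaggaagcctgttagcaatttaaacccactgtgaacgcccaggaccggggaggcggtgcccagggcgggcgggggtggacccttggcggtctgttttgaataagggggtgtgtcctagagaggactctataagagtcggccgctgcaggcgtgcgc
The Id2 stretch held 1 CAGCTG, whose first base lay 196 bases before the start, and no other match to the general E-box CANNTG. No CANNTG lay in the Id3 stretch. For Tcf12, 3 starts were listed, and the first of them, chr9:72111820-72112069 on the minus strand, held 1 CAGCTG at 240 bases before the start. It is shown because, of the stretches searched, it is the other one with this motif. Tcf4 and Id1 were not searched.
Tcf12: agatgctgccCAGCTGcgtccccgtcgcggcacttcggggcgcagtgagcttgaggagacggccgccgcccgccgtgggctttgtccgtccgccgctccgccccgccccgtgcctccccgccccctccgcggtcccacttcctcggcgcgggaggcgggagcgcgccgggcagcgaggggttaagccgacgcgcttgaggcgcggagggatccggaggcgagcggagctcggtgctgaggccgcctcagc
The Tcf3 stretch, chr10:80433636-80433885 on the minus strand, held 1 CANNTG and neither CAGCTG nor CAGGTG or its reverse CACCTG. Motifs were searched on both strands, CAGCTG and CANNTG read the same on either strand, and every CAGCTG or CAGGTG is also a CANNTG. Of 32851 such stretches in the RefSeq table, 13.0% held CAGCTG, 17.2% held CAGGTG or CACCTG, and 66.2% held CANNTG. A match describes letters in this window and does not show that a factor binds there.

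Id2 was far higher in CLP than in LMPP or HSC in both genotypes. Its level was -2.25 in wild type HSC, -0.55 in wild type LMPP and 2.62 in wild type CLP. On the Satb1-null arrays it was -1.17, -0.22 and 2.53 in the same order. Both CLP arrays were thus above all 4 other arrays, and both LMPP arrays were above both HSC arrays. On the raw scale the processed signal in HSC, LMPP and CLP was 37.1, 127 and 1123 on the wild type arrays and 93.8, 158 and 1333 on the Satb1-null arrays. CLP exceeded HSC 29.3-fold in wild type and 13.1-fold in Satb1-null embryos, and exceeded LMPP 9.0-fold and 6.77-fold. In the additive limma model of both factors, Id2 rose from HSC to CLP by 4.29 (log2, SE 0.37, 95% interval 3.30 to 5.28, adjusted p = 0.0389). It rose from LMPP to CLP by 2.96 (SE 0.37, interval 1.97 to 3.95, adjusted p = 0.0437). Id2 was the only one of the 9 probes called in either comparison, against 2.25% of the 30575 probes tested for CLP against HSC and 2.94% for CLP against LMPP. The difference of LMPP from HSC, 1.33 (SE 0.37, interval 0.34 to 2.32), was not called (adjusted p = 0.629). When any of the 6 arrays was left out, limma called 0 probes in every comparison, with 3969 to 7047 at an unadjusted p under 0.05 for CLP against HSC and 4135 to 6794 for CLP against LMPP. The Id2 difference between CLP and HSC then ranged from 3.81 to 4.77 with adjusted p between 0.0777 and 0.222, and that between CLP and LMPP from 2.57 to 3.36 with adjusted p between 0.0753 and 0.266.

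**Figure D1:**
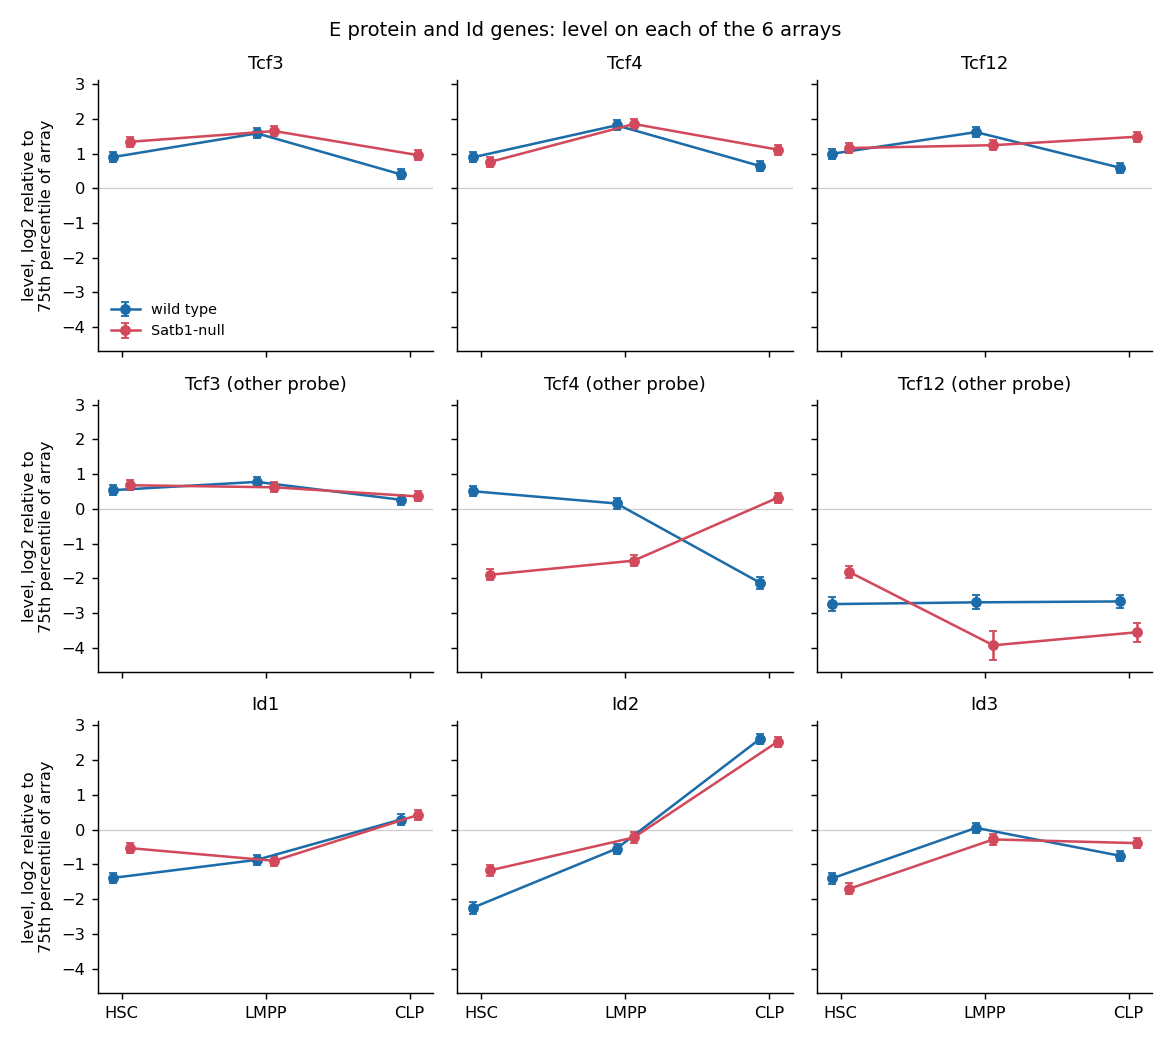
Level of each of the 9 probes (vertical axis, log2 with 0 at the array's 75th percentile) in HSC, LMPP and CLP, with wild type in blue and Satb1-null in red. Each point is 1 array and bars are the scanner software's error of that spot on the log2 scale, which does not cover variation between embryos. Id2 climbs from -2.25 and -1.17 in HSC to 2.62 and 2.53 in CLP, whereas the leading Tcf4 probe peaks in LMPP at 1.81 and 1.85.

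Several lineage marker lists were also higher on the CLP arrays, where Id2 was high. The summed level of 12 natural killer and innate lymphoid markers was 6.16 and 6.0 (log2) on the CLP arrays and between 4.14 and 4.78 on the others. Most of that sum was Nkg7, a granule protein gene, at 6.06 and 5.78 on the CLP arrays and between 3.83 and 4.53 on the others. Without Nkg7 the sum was 2.23 in wild type CLP and 3.23 in Satb1-null CLP, against 2.75 in wild type HSC, 2.11 in Satb1-null HSC, 1.76 in wild type LMPP and 1.78 in Satb1-null LMPP, so the CLP arrays no longer stood apart. Prf1 (perforin) read 0.65 in wild type CLP against 1.03 in wild type HSC, and 0.05 against 0.35 in Satb1-null embryos. Zbtb16 read 0.88 against 1.70 in wild type but 2.15 against 1.03 in Satb1-null embryos. For Tbx21 the same pairs were -1.98 against -1.35 and 0.49 against -2.16. Klrd1 and Gzma were well above background on both CLP arrays and on neither HSC array. Over the 9 markers that passed the filter for testing, the median difference of CLP from HSC was 1.01, against -0.09 over all probes. Of these 12 genes, 8 were well above background in wild type CLP and 9 in Satb1-null CLP, against 6 to 9 on the other arrays. Among the defining markers, Ncr1 and Eomes were not well above background on a single array, and Klrb1c was so only in Satb1-null HSC. Il2rb, an interleukin receptor chain, was the only marker of that list called, for CLP against HSC (adjusted p = 0.0414 in limma). Its signal was undetected (not well above background) in HSC of both genotypes, so its differences of 2.39 and 3.09 in the pairs of arrays are lower bounds. The 6 erythroid markers, all well above background on both CLP arrays, summed to 9.46 and 9.56 there and to between 3.94 and 6.54 elsewhere. The 5 mast cell, basophil and eosinophil markers summed to 7.50 and 7.0 in CLP and to between 1.99 and 3.53 elsewhere, with 4 of 5 well above background on each CLP array and Cma1 on neither. Most of the CLP sum was Prg2 (7.27 and 6.72) and Epx (4.64 and 4.19). The list did not rise as a whole against HSC. Cpa3 read 0.69 and 1.81 in CLP against 1.59 and 2.18 in HSC, and Cma1 was well above background only in HSC. The 5 macrophage markers summed to 2.98 and 3.62 in CLP and to between -1.56 and 0.76 elsewhere, with 4 of 5 well above background on each CLP array and C1qa on no array. The 7 granulocyte and monocyte markers summed to 10.5 and 10.2 in CLP and to between 8.94 and 9.30 elsewhere, with all 7 well above background on every array. The 5 megakaryocyte markers summed to 5.62 and 4.97 in CLP and to between 2.26 and 4.26 elsewhere. Of these, Gp9 did not follow the sum, at -0.56 and -1.45 in CLP and between -1.08 and -0.58 elsewhere. Each of these 5 sums was also higher on both CLP arrays than on the others without its brightest gene (leaving out that gene was chosen after seeing the data). The 6 stem cell markers went the other way, summing to 4.19 and 4.14 in CLP and to between 6.21 and 6.64 elsewhere. In bulk RNA, a change in the number of cells of a type and a change of RNA per cell cannot be told apart. The part of these markers in the Id2 result was not tested.

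**Figure D2:**
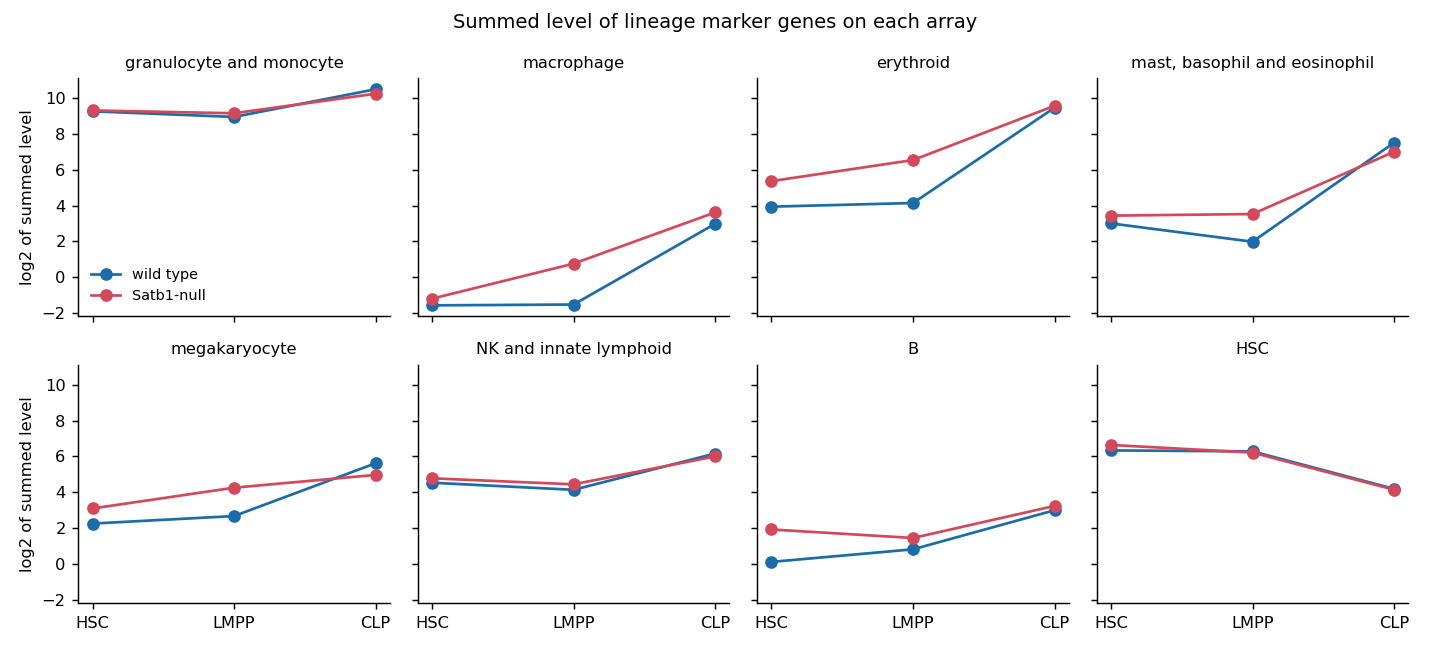
Summed level of 8 lists of lineage marker genes (vertical axis, log2 of the summed linear levels) in HSC, LMPP and CLP, with wild type in blue and Satb1-null in red. Each point is 1 array, with no error bar because no group has a replicate. The erythroid sum stands at 9.46 and 9.56 on the CLP arrays, and the stem cell sum drops to 4.19 and 4.14 there.

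Id1, an inhibitor best known as a target of bone morphogenetic protein signalling, was also at its highest in CLP. Wild type HSC stood at -1.39, wild type LMPP at -0.87 and wild type CLP at 0.29, against -0.53, -0.90 and 0.42 on the Satb1-null arrays. Both CLP arrays were above the other 4, while HSC and LMPP overlapped between genotypes. The difference of CLP from LMPP was 1.24 (SE 0.33, interval 0.36 to 2.12), at an adjusted p of 0.129 in limma, and that from HSC 1.32 (SE 0.33, interval 0.44 to 2.20), at an adjusted p of 0.115. Neither was called. LMPP and HSC differed by 0.08 (SE 0.33, interval -0.80 to 0.96, adjusted p = 0.947), a sign that changed with the centring.

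Id3, the inhibitor that antigen receptor signals raise through Egr factors in thymocytes, had its highest levels in LMPP and its lowest in HSC. Wild type HSC stood at -1.40, wild type LMPP at 0.05 and wild type CLP at -0.75, with -1.70, -0.28 and -0.39 on the Satb1-null arrays. Both HSC arrays were below the other 4, and LMPP was above CLP within each genotype, by 0.80 in wild type and 0.11 in Satb1-null embryos. LMPP exceeded HSC 2.74-fold in wild type and 2.68-fold in Satb1-null embryos. The fitted difference of 1.44 (SE 0.30, interval 0.63 to 2.25) had an adjusted p of 0.582 in limma. For LMPP against HSC that fit called 0 of 30575 probes, with 2421 (7.92%) at an unadjusted p under 0.05, among them 3 of the 9 probes studied (Id3, Id2 and the leading Tcf4 probe). CLP exceeded HSC by 0.98 (SE 0.30, interval 0.17 to 1.79, adjusted p = 0.160), and CLP and LMPP differed by -0.46 (SE 0.30, interval -1.27 to 0.36, adjusted p = 0.434). Id4, the remaining gene of the Id family and not among the 6 genes taken, was not well above background on any array and was not tested.

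The E protein genes, read through the brighter probe of each gene (the leading probe), varied over a narrower range than Id2. Over the 6 arrays the range was 1.25 for Tcf3, 1.21 for Tcf4 and 1.02 for Tcf12, against 4.87 for Id2, 1.81 for Id1 and 1.75 for Id3 (all log2). The dimmer probes did not all share this order, with ranges of 0.52 for Tcf3, 2.64 for Tcf4 and 2.11 for Tcf12, the last 2 wider than those of Id1 and Id3. Tcf3 read 0.90 in wild type HSC, 1.58 in wild type LMPP and 0.40 in wild type CLP, with 1.34, 1.65 and 0.95 on the Satb1-null arrays. It was highest in LMPP and lowest in CLP in both genotypes, although Satb1-null CLP lay above wild type HSC. CLP lay below LMPP by 1.18 in wild type and by 0.69 in Satb1-null embryos, and the fitted difference of -0.94 (SE 0.27, interval -1.66 to -0.22) was not called by limma (adjusted p = 0.146). For LMPP against HSC the Tcf3 difference was 0.50 (SE 0.27, interval -0.22 to 1.21, adjusted p = 0.648). For CLP against HSC it was -0.44 (SE 0.27, interval -1.16 to 0.28, adjusted p = 0.389).

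Tcf4, through its leading probe, was also highest in LMPP in both genotypes. From HSC over LMPP to CLP its levels were 0.89, 1.81 and 0.64 on the wild type arrays and 0.76, 1.85 and 1.11 on the Satb1-null arrays. The LMPP arrays were above the other 4, and HSC and CLP overlapped. LMPP exceeded HSC by 1.01 (SE 0.28, interval 0.26 to 1.76, adjusted p = 0.629 in limma). CLP lay below LMPP, with a difference of -0.96 (SE 0.28, interval -1.71 to -0.20, adjusted p = 0.153). CLP and HSC differed by 0.05 (SE 0.28, interval -0.70 to 0.81, adjusted p = 0.933), and the sign changed with the centring.

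Tcf12 did not keep an order of populations between genotypes. Its leading probe read 0.99, 1.62 and 0.59 along the wild type arrays in the same order, where LMPP was highest. On the Satb1-null arrays it read 1.16, 1.24 and 1.48, where CLP was highest. Its fitted differences were 0.35 for LMPP against HSC (SE 0.39, interval -0.68 to 1.39, adjusted p = 0.773 in limma), -0.39 for CLP against LMPP (interval -1.42 to 0.64, adjusted p = 0.598) and -0.04 for CLP against HSC (interval -1.07 to 1.0, adjusted p = 0.966), the last with a sign that changed with the centring. In wild type embryos all 3 leading E protein probes were more than 2-fold lower in CLP than in LMPP (Tcf3 2.27-fold, Tcf4 2.26-fold and Tcf12 2.03-fold). Past 2-fold lower in that pair of arrays were 18.2% of the 32714 probes well above background on the brighter array. On the Satb1-null arrays, where 16.4% of 32424 such probes passed 2-fold lower, none of the 3 leading probes did. Their differences were -0.69 for Tcf3, -0.74 for Tcf4 and 0.24 for Tcf12. The dimmer probes of Tcf3, Tcf4 and Tcf12 differed by -0.52, -2.29 and 0.03 in the wild type pair. In the Satb1-null pair they differed by -0.26, 1.81 and at least 0.38. With both probes of each gene counted, 4 of 6 passed 2-fold lower in wild type embryos. On the Satb1-null arrays 0 of 6 passed it lower and 1 of 6 higher. The difference between the genotypes in this step was not tested, since each group has 1 array.

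**Figure D3:**
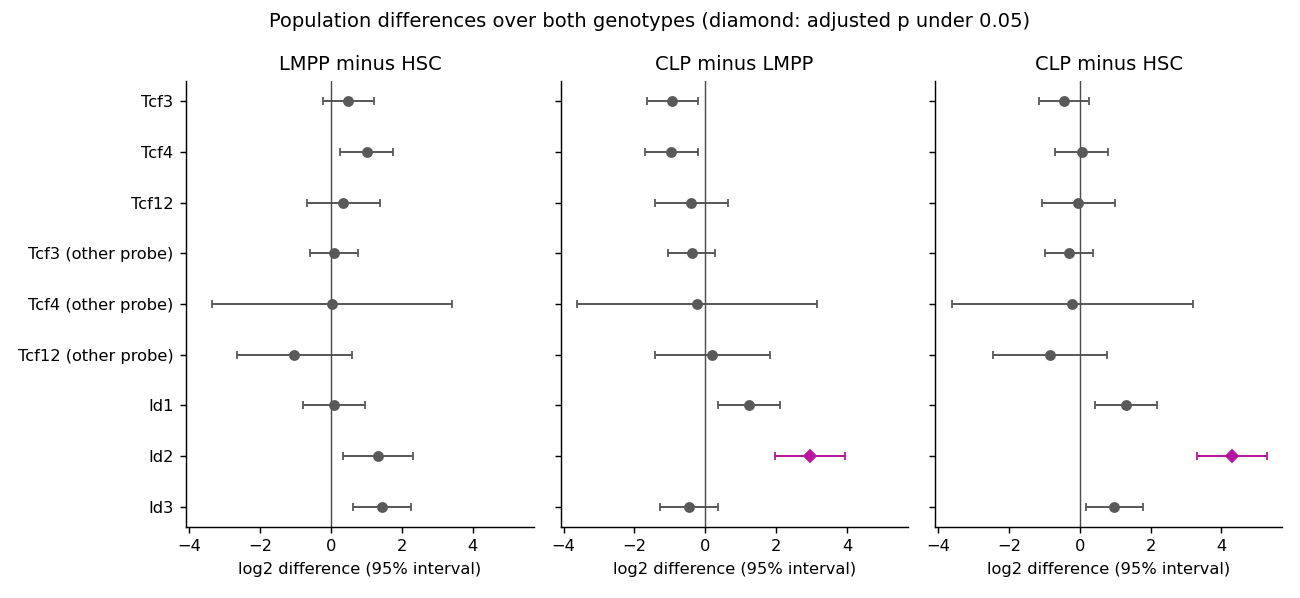
Fitted differences between populations over both genotypes for each of the 9 probes (horizontal axis, log2, with the 95% interval from limma). Panels show LMPP minus HSC, CLP minus LMPP and CLP minus HSC, and a diamond marks an adjusted p under 0.05. Only Id2 carries a diamond, at 2.96 for CLP minus LMPP and 4.29 for CLP minus HSC.

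The dimmer probe of each E protein gene did not always follow the brighter. For Tcf3 it read 0.54, 0.78 and 0.26 from HSC over LMPP to CLP in wild type embryos and 0.68, 0.62 and 0.36 on the Satb1-null arrays, lowest in CLP in both genotypes like the leading probe. Its fitted difference of CLP from LMPP was -0.39 (SE 0.25, adjusted p = 0.419 in limma). For Tcf4 the dimmer probe read 0.51, 0.16 and -2.13 on the same wild type arrays and -1.89, -1.49 and 0.32 on the Satb1-null arrays. The wild type array was the higher in HSC and LMPP and the lower in CLP, an order that the leading Tcf4 probe did not share. For Tcf12 the dimmer probe read -2.74, -2.69 and -2.66 on the wild type arrays, and -1.81 in Satb1-null HSC and -3.55 in Satb1-null CLP. It was not well above background in Satb1-null LMPP, whose measured signal sets the low end of its range. Scanner errors were between 0.16 and 0.42 for this dim probe and between 0.14 and 0.17 for the other 8. Probe positions within the transcripts were not analysed here, so the disagreement of the 2 probes of Tcf4 and of Tcf12 is reported as measured, with its cause not tested.

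Satb1-null and wild type arrays were then compared for the same genes. No member probe was called by limma for genotype over the 3 populations, where 0.0131% of the 30575 probes (4 probes, all of Xist) were called. An unadjusted p under 0.05 was reached by 0 of the 9 probes, against 6.21% of all probes tested. The fitted differences, Satb1-null minus wild type, were 0.35 for Tcf3 (SE 0.22, interval -0.23 to 0.94, adjusted p = 0.792), 0.13 for Tcf4 (interval -0.49 to 0.74, adjusted p = 0.925) and 0.23 for Tcf12 (interval -0.62 to 1.07, adjusted p = 0.899) at the leading probes. They were 0.32 for Id1 (interval -0.40 to 1.04, adjusted p = 0.835), 0.44 for Id2 (interval -0.37 to 1.24, adjusted p = 0.809) and -0.09 for Id3 (interval -0.75 to 0.57, adjusted p = 0.954). The upper bounds of these 6 intervals lay between 0.57 and 1.24. The dimmer probes gave 0.03 for Tcf3 (a sign that changed with the centring), -0.53 for Tcf4 and -0.40 for Tcf12, with adjusted p between 0.885 and 0.987. Tcf3 was higher on the Satb1-null array in all 3 populations, by 0.44 in HSC, 0.07 in LMPP and 0.55 in CLP at its leading probe. At its dimmer probe the same differences were 0.14, -0.16 and 0.10.

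Within single populations 1 of the 3 Id inhibitors passed 2-fold between genotypes, in HSC. There 18.6% of the 34147 probes well above background on the brighter array did so. Id2 was 2.11-fold higher on the Satb1-null HSC array (1.08), and differed by 0.32 in LMPP and -0.09 in CLP. Id1 differed by 0.86 in HSC, -0.03 in LMPP and 0.13 in CLP. Id3 differed by -0.30 in HSC, -0.33 in LMPP and 0.36 in CLP. Of the 27 differences (9 probes in 3 populations), 5 passed 2-fold, which compares single arrays and carries no test. Counted the same way, 13.0% of 31821 probes in LMPP and 23.3% of 32501 in CLP passed 2-fold in either direction, beside the 18.6% in HSC. The share of the 27 member differences, 5 past 2-fold, was thus near the background. Besides Id2 in HSC, these were the dimmer Tcf4 probe in all 3 populations (-2.41, -1.65 and 2.46 in HSC, LMPP and CLP) and the dimmer Tcf12 probe in LMPP, lower on the Satb1-null array by at least 2.36-fold. The leading probes of those genes were within 2-fold in all 3 populations. They differed by -0.13, 0.04 and 0.47 for Tcf4 and by 0.16, -0.38 and 0.89 for Tcf12 in HSC, LMPP and CLP.

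**Figure D4:**
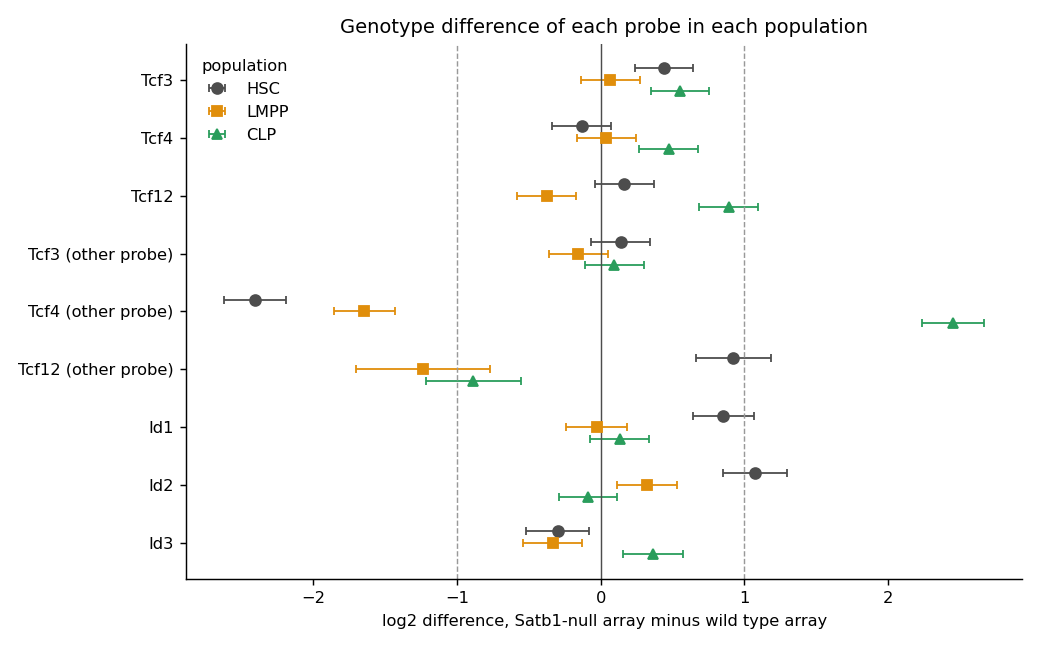
Difference of the Satb1-null array from the wild type array (horizontal axis, log2) for each of the 9 probes in HSC (circles), LMPP (squares) and CLP (triangles). Bars are the combined scanner error of the pair of spots, dashed lines mark 2-fold, and the LMPP point of the dimmer Tcf12 probe is a bound (at least 2.36-fold lower). The dimmer Tcf4 probe lies at -2.41, -1.65 and 2.46, whereas the leading Tcf4 probe lies between -0.13 and 0.47.

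Other named genes were ranked by how closely their levels followed each member over the 6 arrays. The 8129 genes compared were well above background on every array and had an SD of at least 0.3 (log2). The ranking is a description over 6 points that share their arrays, and many genes reach a high value. For Id2 the closest were Vsir (Pearson r = 0.998), Ckap4 (0.998) and Cdk2ap2 (0.997), and 932 genes had r of at least 0.9. For Id1 they were Anapc1 (0.999), Plscr3 (0.997) and Dtx4 (0.997), and for Id3 Cdk19 (0.977), Hjurp and Fam72a. For Tcf3 the closest were Tfap4 (0.998), Pnrc1 (0.997) and Paip2b (0.995), and for Tcf12 Etv3 (0.996), Rwdd4a (0.988) and Tec (0.984). For Tcf4 they were Maf1 (0.995), Flt3 (0.992), the cytokine receptor used in the LMPP sort, and Ascc1 (0.990). Among the members, Id1 and Id2 had r = 0.94, Tcf3 and Tcf4 0.81, Tcf4 and Id3 0.77, and Tcf3 and Id2 -0.52. The other 2 E protein genes had r nearer 0 with Id2, -0.18 for Tcf4 and -0.16 for Tcf12. Among the 8129 genes, Id1 ranked only 499 for Id2 and Tcf4 only 1166 for Tcf3.

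Of 23 genes that textbooks give as E protein targets in lymphoid progenitors, 20 passed the filter for testing. From LMPP to CLP, 3 of the 20 were called higher and 1 lower, where 2.94% of all probes tested were called. The median difference was 0.58 against -0.12 over all probes. Of the 20, 11 differences were positive and 9 negative. Past 2-fold in both genotypes were 8 higher and 2 lower. The share of all probes past 2-fold in both genotypes was not computed, so this count does not set the list apart. The list takes 1 probe a gene. In a fit of the brightest probe of each gene, 1134 of 13016 were called, with a median of -0.06. Calls of the list in that fit were not counted. Pou2af1, a B cell coactivator, rose by 4.26 (SE 0.58, adjusted p = 0.0479 in limma), although wild type LMPP was not well above background. Pax5, the B lineage commitment factor, went from -2.78 to 0.42 in wild type and from -1.72 to 0.99 in Satb1-null embryos (2.96, SE 0.36, adjusted p = 0.0424). Vpreb3, a chaperone of the pre-B cell receptor, was not well above background on either LMPP array. Its CLP level was higher by at least 2.86 in one genotype and 3.47 in the other, and it was called (adjusted p = 0.0388 in limma). Cdkn1a, the cell cycle inhibitor p21, fell by 2.20 (SE 0.25, adjusted p = 0.0391), from 0.57 to -1.67 in wild type and from 1.82 to -0.34 in Satb1-null embryos. From HSC to CLP, 18 differences were positive and 2 negative, with a median of 1.86 against -0.09 over all probes. Past 2-fold in both genotypes were 10 higher and 2 lower, again without a share over all probes to set beside it. The fit of the brightest probe of each gene called 1133 of 13016, with a median of 0.02. In the fit of all probes 2.25% were called, and of the list 2 genes were called higher and 1 lower. Those were Il7r, which the CLP sort selects for (3.76, adjusted p = 0.0391), Vpreb3 (2.64, adjusted p = 0.0486, not well above background in wild type HSC) and Cdkn1a (-2.26, adjusted p = 0.0412). Pax5 also stands in the list of 7 B cell markers, whose summed level was 3.0 and 3.24 on the CLP arrays and between 0.12 and 1.93 elsewhere, with 6 and 7 of 7 genes well above background in CLP. The part of B lineage cells in these target levels was not tested. Like Id2, these genes lost their calls when any 1 array was left out.

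**Figure D5:**
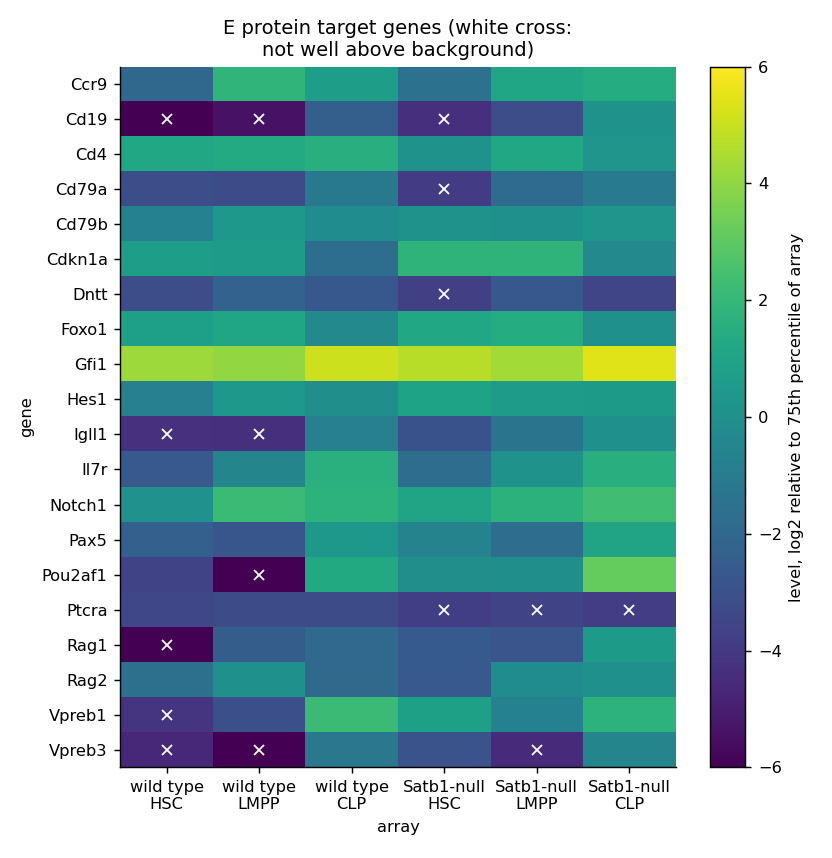
Level of the 20 tested E protein target genes on each array (colour, log2 with 0 at the array's 75th percentile), with white crosses where a gene was not well above background. Colours are to be read along a row, since probes differ in brightness. Pax5 is at 0.42 and 0.99 on the CLP arrays and between -2.78 and -0.64 elsewhere, and Cdkn1a is lowest in CLP at -1.67 and -0.34.

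Between LMPP and HSC the target list had 0 called genes (4 of 20 at an unadjusted p under 0.05, against 7.92% of all probes). Its median was 0.46 against 0.06 over all probes, with 14 of the 20 differences positive and 6 negative. In the fit of the brightest probe of each gene, 1118 of 13016 reached that p, with a median of 0.12. Ccr9, a chemokine receptor of thymus-seeding progenitors, was past 2-fold higher in LMPP in both genotypes with a fitted 3.18, as were Rag2 (2.03) and Il7r (1.98), at adjusted p between 0.552 and 0.629 in limma. For Satb1-null against wild type the list had 0 called genes (6 of 20 at an unadjusted p under 0.05, against 6.21% of all probes). Its median was 0.45 against -0.02 over all probes. Of the 20, 17 differences were positive and 3 negative. The 3 were Cd4 (-0.86), Dntt (-0.62, undetected in Satb1-null HSC) and Ptcra (-0.42, undetected on the Satb1-null arrays). With the brightest probe of each gene, 726 of 13016 reached that p, with a median of 0.06. Pou2af1 (3.12) and Cdkn1a (1.22) were past 2-fold higher on the Satb1-null array in all 3 populations (Pou2af1 as a bound in LMPP), each at an adjusted p of 0.767 in limma. The share of all probes past 2-fold in all 3 populations was not computed. Gfi1, a transcriptional repressor, gave 0.37 and Notch1 0.34.

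Genes that work with E proteins and Id proteins gave 0 limma calls in the 4 comparisons. An unadjusted p under 0.05 was reached by at most 3 of 7 partners, 3 of 14 input genes and 4 of 10 cofactor and turnover genes in any comparison. These highest counts came from the comparisons with CLP. There 23.2% (against LMPP) and 23.7% (against HSC) of all probes reached it, so 3 of 14 was near the background. In the fit of the brightest probe of each gene, 3613 and 3656 of 13016 did. Of 13 tissue-restricted partners and their LIM cofactors, 7 passed the filter. Among them Tal1, which pairs with E proteins in blood and erythroid development, was 1.62 higher in CLP than in LMPP (SE 0.25, adjusted p = 0.0550 in limma), and Bhlhe40, not well above background on either LMPP array, was higher by at least 1.76 and 1.89 in the pairs of arrays (adjusted p = 0.268). Bright members that did neither included Lyl1 (0.07) and Nhlh1 (0.14). Of 19 genes of the BMP, Smad and Egr inputs to Id genes, 14 passed. Egr2 was 1.94 higher in CLP than in HSC (adjusted p = 0.087 in limma). For CLP against LMPP 10 of the 14 were negative. Their median was -0.42, against -0.12 over all probes and -0.06 over the brightest probe of each gene. Of 12 cofactor and Id turnover genes, 10 passed. Kat2a, an acetyltransferase, differed by -1.30 between CLP and LMPP (adjusted p = 0.102), and Fzr1, an activator of the anaphase-promoting complex, by 1.26 between CLP and HSC (adjusted p = 0.117). Outside the E protein family, 2 of the 4 HMG box Tcf and Lef genes passed the filter. Of these Tcf7, which encodes the T cell factor TCF-1, rose by 2.65 from LMPP to CLP (SE 0.37, adjusted p = 0.0494), and Tcf7l2 differed by -1.22 (adjusted p = 0.148).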

How the data were processed

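RNA of 6 samples, grouped by the genotype and population in their titles, was measured on 1 slide of single-colour Agilent arrays. Per the labels' protocols, 6.1 ng of total RNA was amplified to Cy3-labelled cDNA. The deposited scanner files hold a linear intensity for every spot, with detection flags, made with Agilent Feature Extraction 10.10 per the submitters' processing notes (10.10.1.1 per the file headers). The flags, coded in the deposited files as yes or no values, mark spots well above background, outliers and saturation, and no spot used here was saturated. The authors also deposited a table of values, which equals the processed intensity times a constant per array (5.71 to 8.77). In the order HSC, LMPP and CLP, its columns had medians of 200.1, 140.2 and 120.7 (wild type) and 165.3, 145.6 and 124.9 (Satb1-null). It is linear, not centred on genes and has no direction, and the basis of its scale stays unknown. Centred, it gives the same values as the scanner files.

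Control spots (3671) and outlier spots (154 to 181 per array) were left out. Values were log2(processed signal) minus the array's 75th percentile, with spots of 1 probe averaged. The median SD over repeated spots lay between 0.0813 and 0.0891, and the number of arrays limits the precision. Probes were named by symbol or accession through the RefSeq table of GRCm38.p6, which named 27242 of 55681 probes. The array's gene names are those of its design. limma 3.58.1 (R 4.3.3, lmFit and eBayes) fitted genotype and population to the 30575 probes well above background on at least 3 arrays, with undetected values below the lowest detected signal of their array raised to that signal, and Benjamini-Hochberg adjustment over all probes (threshold 0.05). The spread it measures is how far a difference varies between populations or between genotypes. On simulated data of 30570 probes, the fit recovered 34% of probes changed by 1 (log2) and 98% of those changed by 2 for CLP against HSC. For CLP against LMPP it recovered 30% and 98%. Every simulated probe had the same spread and none was raised to a floor, unlike the measured probes. These shares therefore do not carry over to the arrays, where Cd5l, at 3.26 for CLP against HSC, was not called (adjusted p = 0.0731 in limma). Differences between single arrays were counted past 2-fold without a test, as bounds where the dimmer spot was undetected.

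All probes of the 6 genes are named. From each pathway list came up to 4 called genes of largest difference or, with none called, genes past 2-fold in every pair of arrays, and up to 2 bright genes that did neither. The genes most alike are the 3 of highest Pearson r with an SD of at least 0.3. The lists were E protein targets, partners, BMP, Smad and Egr inputs, cofactors and Id turnover, HMG box genes and cell type markers. The members and lists were chosen with earlier results of these data known. Alternatives covered centring, quantile normalization, background correction (normexp with offset 50 on the median spot signal, since no mean was in the columns), filter, floor, fold and leaving out each array.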

Additional observations from a re-analysis of the deposited data

Results flagged for a closer look

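The dimmer Tcf4 probe went in opposite directions between populations. Satb1-null minus wild type was -2.41 in HSC and -1.65 in LMPP but 2.46 in CLP (log2), each past 2-fold and each from a single pair of arrays. The difference between populations was not tested. The leading Tcf4 probe differed by -0.13, 0.04 and 0.47 in the same pairs.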

How the results depend on the processing

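No paired analysis was possible because each group has 1 array and the labels give no replicate numbers that pair samples. For CLP against LMPP, 898 probes were called, 415 after quantile normalization, 2041 after normexp, 434 with no floor and 0 with no detection filter (9184 at an unadjusted p under 0.05 in limma). For CLP against HSC, 687 were called, 1366 with median centring, 288 after quantile normalization, 1695 after normexp, 290 with no floor, 1133 with 1 value a gene and 0 with no detection filter (9383 at an unadjusted p under 0.05). Of the 687, 365 were higher and 322 lower. The split was 983 to 383 with median centring, 199 to 312 with the percentile over detected probes, 220 to 302 at the authors' own scale (an alternative chosen after seeing the data) and 116 to 174 with no floor. The median of all probes for CLP against HSC moved from -0.09 to 0.29 with median centring and to -0.33 with the percentile over detected probes. The 4 genotype calls became 0 after quantile normalization, with no detection filter or on probes detected on all 6 arrays, and 1 with 1 value a gene. With 1 array left out, all these counts were 0, and the remaining array of that population is assumed to vary like the others. The 5 member differences past 2-fold became 3 after normexp, 9 at 1.5-fold and 3 at 3-fold.

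Under the other settings, Id2 for CLP against HSC was between 3.36 and 4.67 and lost its call only with no detection filter (adjusted p = 0.0793). For CLP against LMPP it was between 2.47 and 3.17 and lost its call with no detection filter (adjusted p = 0.0944), quantile normalization (0.0642) and no floor (0.0570). No other member was called under any setting tried.

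Small differences changed sign with the setting. With median centring, CLP minus HSC became 0.085 for the dimmer Tcf3 probe, 0.17 for the dimmer Tcf4 probe and 0.35 for the leading Tcf12 probe. The leading Tcf4 probe became -0.18 with the percentile over detected probes, -0.048 after quantile normalization and -0.13 at the authors' own scale. LMPP minus HSC became -0.057 with the percentile over detected probes and -0.080 at the authors' own scale for the dimmer Tcf3 probe, and -0.12, -0.046 after normexp and -0.14 for the dimmer Tcf4 probe. For Id1 it became -0.069 and -0.092. The genotype difference of the dimmer Tcf3 probe became -0.015 with the percentile over detected probes.

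With 1 array left out, signs changed within these ranges. For CLP minus HSC they were -0.21 to 0.31 (Tcf4, leading), -2.45 to 2.03 (Tcf4, dimmer), -0.54 to 0.46 (Tcf12, leading) and -1.82 to 0.16 (Tcf12, dimmer). For CLP minus LMPP they were -2.48 to 2.0 (Tcf4, dimmer), -0.89 to 0.11 (Tcf12, leading) and -0.43 to 0.83 (Tcf12, dimmer). For LMPP minus HSC they were -0.048 to 0.23 (Tcf3, dimmer), -1.38 to 1.43 (Tcf4, dimmer), -0.10 to 0.81 (Tcf12, leading) and -0.32 to 0.48 (Id1). For genotype they were -0.030 to 0.12 (Tcf3, dimmer), -0.046 to 0.26 and -2.03 to 0.41 (Tcf4, leading and dimmer), -0.11 to 0.53 and -1.06 to 0.019 (Tcf12, leading and dimmer) and -0.32 to 0.032 (Id3). With 1 array a group, these data limit what can be said to differences that both genotypes share.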
